A study of Mus musculus with 9 samples.

Results

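The genes described here encode 10 transcription factors of endothelial cells, chosen by name: the SoxF factors *Sox7*, *Sox17* and *Sox18*, the Krüppel-like factors *Klf2*, *Klf4* and *Klf6*, the partners *Gata2*, *Tal1* and *Lmo2*, and the MADS-box factor *Mef2c*. Each name matched 1 of the 37104 loci in the tables. Their expression was measured by RNA-seq of primary mouse lung endothelial cells (MLEC) in 3 groups of 3 libraries. ECtrl cells were Cdh5-Cre+ with intact *Jnk1* and *Jnk2* (Jnk1+/+ Jnk2+/+ Jnk3-/-). EfCtrl cells were Cdh5-Cre- and carried LoxP alleles (Jnk1LoxP/LoxP Jnk2LoxP/LoxP Jnk3-/-). E3KO cells were Cdh5-Cre+ with the same LoxP alleles (Jnk1LoxP/LoxP Jnk2LoxP/LoxP Jnk3-/-). All 3 groups therefore lacked *Jnk3*, and every mouse was an adult C57BL/6J animal of 10 to 12 weeks. Cre was driven by the *Cdh5* promoter, which is active in endothelium, and each library came from its own isolation, in which the lungs of 4 mice were pooled, cells were selected for ICAM2 and the cells were then cultured. Values are FPKM, fragment numbers divided by transcript length and by the mapped fragments of the library, so that levels can be compared between genes as well as between libraries.

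SoxF factors carry an HMG box, bend DNA and act in vessel growth and in arterial and lymphatic identity. KLF2 and KLF4 are zinc finger factors of quiescent endothelium that laminar flow induces through the kinases MEK5 and ERK5 and through MEF2 factors bound at their promoters, while KLF6 is a relative that responds to vessel injury. GATA2 and TAL1 bind GATA and E-box motifs, and LMO2 joins them, with LDB1 and E proteins, into one complex in endothelium and in blood progenitors. JNK kinases, whose genes *Jnk1* and *Jnk2* carry LoxP alleles in E3KO cells, phosphorylate JUN and other AP-1 factors.

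The promoter of *Klf2* is shown because a MEF2 motif lies in it, and that of *Klf6* because *Klf6* was the member that passed the test described below. Both are RefSeq windows on GRCm38.p6, from 250 bases before to 50 bases after the transcript start on the sense strand, at chr8:72318812-72319111 (+) and chr13:5861239-5861538 (+). The capitals mark the MEF2 motif.
Klf2: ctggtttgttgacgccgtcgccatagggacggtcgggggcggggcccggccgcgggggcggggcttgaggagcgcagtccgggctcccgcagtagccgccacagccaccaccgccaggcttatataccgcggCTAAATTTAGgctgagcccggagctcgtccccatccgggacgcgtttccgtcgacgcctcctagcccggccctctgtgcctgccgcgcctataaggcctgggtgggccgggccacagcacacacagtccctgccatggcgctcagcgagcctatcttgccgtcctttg
Klf6: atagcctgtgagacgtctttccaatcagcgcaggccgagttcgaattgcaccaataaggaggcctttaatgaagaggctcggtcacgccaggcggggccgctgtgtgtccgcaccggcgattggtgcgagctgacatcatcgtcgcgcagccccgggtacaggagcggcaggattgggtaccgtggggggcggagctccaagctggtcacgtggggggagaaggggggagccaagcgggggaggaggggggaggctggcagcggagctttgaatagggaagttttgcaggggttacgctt

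Promoters were matched by symbol for 6 of the 10 members, *Klf2*, *Klf4*, *Klf6*, *Gata2*, *Tal1* and *Mef2c*, with 10 windows in all because some have several starts. The MEF2 motif CTANNNNTAG occurred on either strand in 1 of these windows, that of *Klf2*, 118 bases before the start, and in 3.69% of all 32851 promoter windows. An AP-1 motif, TGANTCA, occurred in 1 window of *Mef2c* and in 7.81% of all windows. A GATA motif, AGATAA, occurred in 1 window of *Tal1* and in 11.2% of all windows. The cyclic AMP response element TGACGTCA (1.79% of all windows) and the CArG box bound by serum response factor (1.63%) were in none of the 10 windows. These motifs were chosen after several candidates had been searched, do not overlap each other in these windows, and are matches of letters only.

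The libraries were examined before the members. *Mapk8* (JNK1) was at 14.0 to 17.9 FPKM in the 6 control libraries and at 20.7, 8.77 and 4.65 FPKM in E3KO replicates 1, 2 and 3. *Mapk9* (JNK2) was at 42.7 to 50.9 FPKM among controls and at 27.6, 35.1 and 20.7 FPKM in E3KO, and it fell against the mean of the controls (log2 change -0.75, limma adjusted p = 0.0359, lost under 12 of 21 alternatives, among them without E3KO replicate 1 at 0.0642 without replicate 3 at 0.0983 and with the replicate block at 0.0756). *Mapk10* (JNK3) was at or below 0.27 FPKM in all 9 libraries. In the library labelled E3KO replicate 1, *Mapk8* was thus above every control, and its FPKM summed to 9841810 against 656089 to 908401 in the others, with 96.4% of the sum in 10 symbols. FPKM of *Mapk8* and *Mapk9* cover whole loci, including exons outside the LoxP sites. Genes were also put into 5 classes of equal size by the GC content of their transcripts, and in the class with the highest GC content the median log2 difference from the control mean was -0.34 in this library, -0.10 and -0.14 in E3KO replicates 2 and 3, and -0.19 to 0.15 in the controls. In the next class it was -0.20, -0.03 and -0.07 in E3KO replicates 1, 2 and 3, and -0.10 to 0.08 in the controls. *Klf6* and *Mef2c* were in the lowest class and all other members in the highest or the next. Calls that changed without the library labelled E3KO replicate 1 are therefore given both ways.

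In controls the 10 factors spanned a wide range of levels. *Lmo2* was highest at 255 ± 48.2 FPKM (SD, n = 6), above 98.0% of the 10605 genes tested, and *Sox17* was lowest at 2.77 ± 0.538 FPKM, above 10.1% of them. Between these, in falling order of mean level, were *Sox18* (128.6 FPKM), *Klf6* (83.8), *Klf4* (46.0), *Sox7* (30.6), *Klf2* (22.9), *Tal1* (20.1), *Mef2c* (18.9) and *Gata2* (7.65). Most neighbours kept this order in 6 of 6 control libraries, with an exact two-sided sign-flip p of 0.0312, the smallest that 6 libraries can give. The order was taken from these same 6 libraries, so the sign-flip p-values only describe how steadily the libraries kept it. *Sox7* was above *Klf2* in 5 of 6 libraries (exact sign-flip p = 0.0625) and *Klf2* above *Tal1* in 4 of 6 (exact p = 0.375), so the level of *Klf2* could not be told from those of its neighbours beyond the spread between libraries. *Tal1* was above *Mef2c* in 6 of 6 libraries, but by only 0.09 on the log2 scale, and their ranges overlapped. In E3KO, *Klf2* was below *Tal1* in all 3 libraries.

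Between ECtrl and EfCtrl, which differ in Cre and in the LoxP alleles, no member passed the test. The test was limma on log2(FPKM + 1) with the 3 groups in 1 model and Benjamini-Hochberg adjustment over 10605 genes. It called 0 members and 0 genes (0%) at an adjusted p under 0.05 between the controls, 195 genes (1.84%) had an unadjusted p under 0.05, and the smallest unadjusted limma p of a member was 0.140, for *Sox17*. ECtrl replicate 1 was the highest of the 6 controls for 8 of the 10 members, against 26.3% of all genes tested. The SD was wider in ECtrl than in EfCtrl for 9 of the 10 members and for 72.0% of all genes tested, and for *Klf2* it was 11.5 FPKM in ECtrl and 2.045 FPKM in EfCtrl.

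The comparison of E3KO with each control asked which factors changed in cells with Cre and the LoxP alleles of *Jnk1* and *Jnk2*. *Klf6* fell: it was the 1 member of 10 called against ECtrl, where 2.25% of all genes were called, and against the mean of both controls, where 4.8% were. None of the 10 was called against EfCtrl alone, where 0.952% of all genes were. Beyond *Klf6*, 4 members, *Klf2*, *Klf4*, *Gata2* and *Lmo2*, lay lower in all 3 E3KO libraries than in all 6 controls, and *Sox17* lay higher in all 3, without passing the adjusted threshold. With *Klf6*, 6 of 10 members thus had no overlap between E3KO and controls, where 16.6% of all genes had none (11.5% lower and 5.18% higher). This count depended on scaling: with libraries centred on their median, scaled by their 75th percentile, centred within classes of GC content, or scaled as the authors' group values, *Klf4* and *Gata2* overlapped the controls, and 3 members (*Klf2*, *Klf6* and *Lmo2*) stayed lower and 1 (*Sox17*) higher. With median centring, 8.19% of all genes were lower and 7.73% higher. With 75th percentile scaling these shares were 10.1% and 6.36%. Centring within GC classes gave 8.88% and 8.66% of the 9418 genes with a GC content, and the authors' scaling 5.95% and 10.5%. Without the library labelled E3KO replicate 1, *Sox7* and *Tal1* also lay lower in both remaining libraries, which made 7 members lower and 1 higher, where 16.1% of genes were lower and 10.5% higher.

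**Figure D1:**
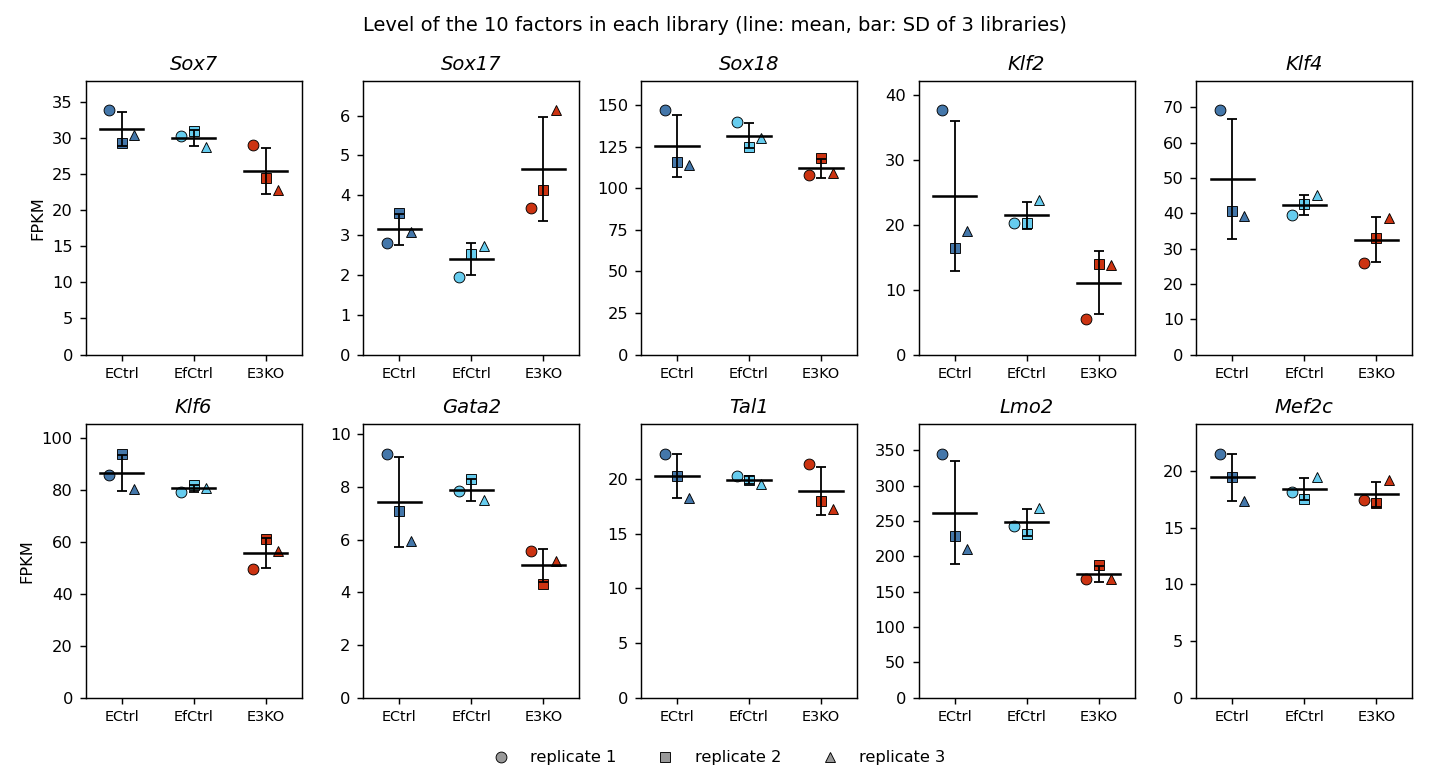
Level in FPKM of each of the 10 factors in each of the 9 libraries, by group, with the replicate number given by the marker shape. The black line is the mean and the bar the SD of 3 libraries. In FPKM as deposited, for *Klf2*, *Klf4*, *Klf6*, *Gata2* and *Lmo2* all 3 E3KO points lie below the 6 control points, and for *Sox17* all 3 lie above, while the other 4 factors overlap. With median centring *Klf4* and *Gata2* overlap too.

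In FPKM as deposited, all 3 Krüppel-like factors lay lower in each E3KO library than in each control library. *Klf6* (chromosome 13, 5861489 to 5870393, plus strand, mm10) was at 85.8, 94.2 and 80.4 FPKM in ECtrl, at 79.4, 82.1 and 80.8 FPKM in EfCtrl, and at 49.8, 61.4 and 56.5 FPKM in E3KO. The 6 controls were close together and the E3KO libraries stood clear of them, at 66.7% of the control mean. The log2 change was -0.63 against ECtrl (SE 0.11, limma adjusted p = 0.0365), -0.53 against EfCtrl (SE 0.11, adjusted p = 0.0717) and -0.58 against the mean of the controls (SE 0.10, adjusted p = 0.0217). The 3 against 6 exact permutation test gave p = 0.0119, the smallest it can give. The call against ECtrl was lost under 12 of 21 alternatives, among them 8 of the 9 fits without a single library (all but that without E3KO replicate 1), the replicate block (adjusted p = 0.0752) and median centring (0.0570), with adjusted p up to 0.119. The call against the mean of the controls was lost, at adjusted p up to 0.0883, without any 1 of the EfCtrl libraries or without E3KO replicate 3, while the log2 change stayed between -0.65 and -0.45 under all 21 alternatives.

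*Klf2* (chromosome 8, 72319033 to 72321656, plus strand) was at 37.6, 16.5 and 19.1 FPKM in ECtrl, at 20.2, 20.3 and 23.8 FPKM in EfCtrl, and at 5.48, 14.0 and 13.7 FPKM in E3KO. ECtrl replicate 1 was far above the other controls, and the library labelled E3KO replicate 1 far below the other E3KO libraries. E3KO was at 48.4% of the control mean, with a log2 difference of -1.03 (95% interval -1.79 to -0.27, limma adjusted p = 0.115) and an exact permutation p of 0.0119. Without the library labelled E3KO replicate 1 the log2 difference was -0.63 (adjusted p = 0.224), and without both of these libraries it was -0.46 (adjusted p = 0.0645) and E3KO was at 69.5% of the control mean. The longest *Klf2* transcript is 61.6% GC, in the highest of the 5 GC classes, and centring each library within these classes gave -0.87 (adjusted p = 0.132).

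*Klf4* (chromosome 4, 55527143 to 55532466, minus strand) was at 69.1, 40.7 and 39.2 FPKM in ECtrl, at 39.4, 42.5 and 45.1 FPKM in EfCtrl, and at 25.9, 32.9 and 38.7 FPKM in E3KO. The groups did not overlap in FPKM as deposited, but E3KO replicate 3 was only just below the lowest control. The log2 difference from the mean of the controls was -0.48 (95% interval -0.94 to -0.02, limma adjusted p = 0.199, exact permutation p = 0.0238), and -0.20 (adjusted p = 0.310) without the library labelled E3KO replicate 1 and ECtrl replicate 1, again the extreme libraries of their groups. The summed FPKM of the 3 Krüppel-like factors was 139 to 192 in the controls and 81.2, 108.4 and 108.9 in E3KO.

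Of the partners in the GATA2, TAL1 and LMO2 complex, *Gata2* and *Lmo2* lay lower in E3KO in FPKM as deposited and *Tal1* overlapped the controls. *Gata2* (chromosome 6, 88193891 to 88207030, plus strand), a zinc finger factor of endothelium and blood progenitors, was at 9.26, 7.07 and 5.93 FPKM in ECtrl, at 7.83, 8.30 and 7.50 FPKM in EfCtrl, and at 5.57, 4.32 and 5.17 FPKM in E3KO. Its E3KO mean was 65.7% of the control mean, with a log2 difference of -0.52 (95% interval -0.83 to -0.20, limma adjusted p = 0.0722, exact permutation p = 0.0119). The *Gata2* transcript is also in the highest GC class, and centring within classes gave a log2 difference of -0.36 (adjusted p = 0.225).

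*Lmo2* (chromosome 2, 103957986 to 104063240, plus strand), a LIM-only protein that does not itself bind DNA, was at 345, 229 and 211 FPKM in ECtrl, at 243, 232 and 269 FPKM in EfCtrl, and at 168.4, 188 and 168.0 FPKM in E3KO. The 3 E3KO libraries were close together and below all controls, at 68.6% of the control mean, with a log2 difference of -0.52 (95% interval -0.89 to -0.16, limma adjusted p = 0.1003, exact permutation p = 0.0119). ECtrl replicate 1 was the highest control. Without it and the library labelled E3KO replicate 1, E3KO was at 75.2% of the control mean. The deposited *Lmo2* locus spans 3 other annotated genes, none of which shares exonic bases with it. *Tal1* (chromosome 4, 115056426 to 115071755, plus strand), the helix-loop-helix partner, was at 18.2 to 22.3 FPKM among controls and at 21.3, 17.97 and 17.2 FPKM in E3KO, a log2 difference of -0.09 (95% interval -0.33 to 0.15, limma adjusted p = 0.619). Its libraries overlapped, the highest E3KO library being the one labelled replicate 1.

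Among the SoxF factors, *Sox17* lay higher in E3KO than in the controls, and *Sox7* and *Sox18* did not. *Sox17* (chromosome 1, 4490928 to 4496413, minus strand), a factor of arterial endothelium, was at 2.80, 3.55 and 3.08 FPKM in ECtrl, at 1.95, 2.51 and 2.73 FPKM in EfCtrl, and at 3.67, 4.14 and 6.13 FPKM in E3KO. The lowest E3KO library was just above the highest control, and the highest stood well apart, so that E3KO was at 168% of the control mean. The log2(FPKM + 1) difference, which understates the change of a gene at this level, was 0.57 (95% interval 0.22 to 0.92, limma adjusted p = 0.0733), and the exact permutation p was 0.0119. Taken singly, the difference was 0.43 against ECtrl (adjusted p = 0.228) and 0.72 against EfCtrl (adjusted p = 0.0998). The authors' group FPKM of *Sox17*, 4.61, 3.53 and 8.30 for ECtrl, EfCtrl and E3KO, had the same order but were 1.47, 1.47 and 1.79 times the means of the libraries, where the median over genes was 1.08, 1.07 and 1.17 times.

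*Sox7* (chromosome 14, 63943674 to 63950732, plus strand) was at 28.7 to 33.8 FPKM among controls and at 29.0, 24.4 and 22.8 FPKM in E3KO. E3KO replicates 2 and 3 lay below every control and the library labelled E3KO replicate 1 lay among them, with a log2 difference of -0.26 (95% interval -0.50 to -0.03, limma adjusted p = 0.174). *Sox18* (chromosome 2, 181669836 to 181671640, minus strand), which acts in lymphatic specification, was at 114 to 147 FPKM among controls and at 108, 119 and 109 FPKM in E3KO. Its groups overlapped, and the log2 difference was -0.19 (95% interval -0.44 to 0.06, limma adjusted p = 0.314). *Mef2c* (chromosome 13, 83504034 to 83667079, plus strand), the MADS-box factor, was at 17.3 to 21.5 FPKM among controls and at 17.4, 17.2 and 19.2 FPKM in E3KO. It differed by -0.07 (95% interval -0.29 to 0.15, limma adjusted p = 0.686), the smallest difference of the 10 members, and its libraries overlapped.

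**Figure D2:**
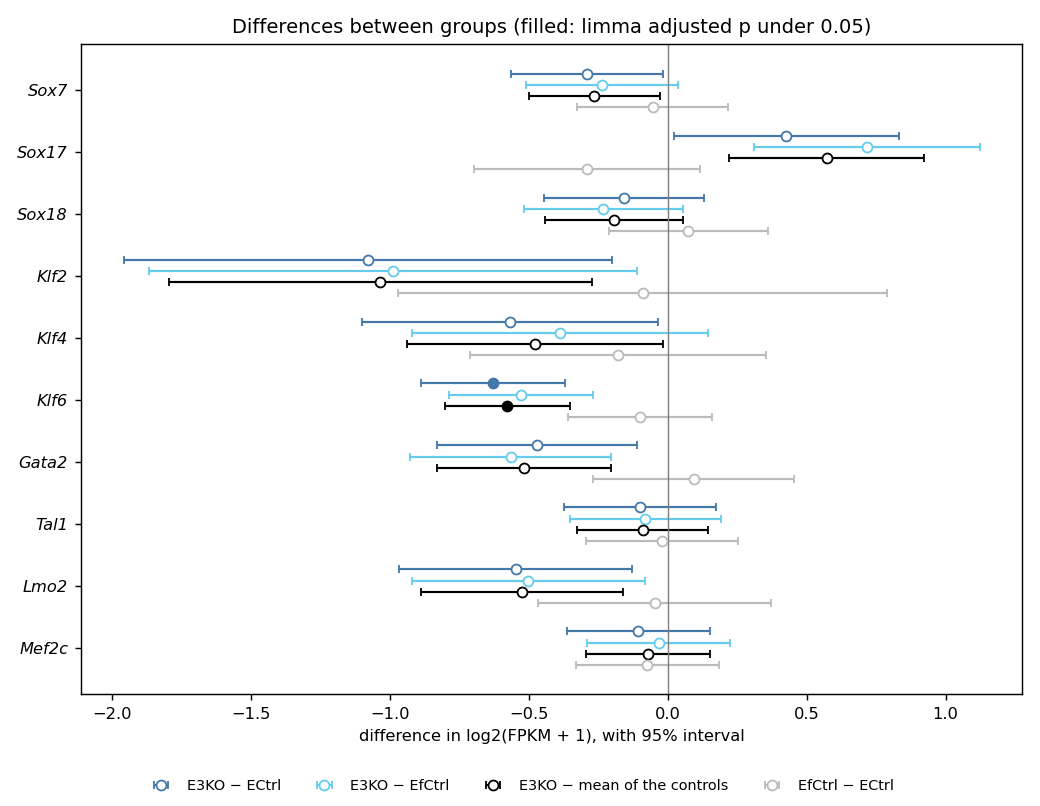
Differences in mean log2(FPKM + 1) between groups for the 10 factors, with 95% intervals from limma, for E3KO against each control, against the mean of the controls, and for EfCtrl against ECtrl. Filled points, *Klf6* at -0.63 against ECtrl and -0.58 against the mean of the controls, passed an adjusted p of 0.05. The contrasts share libraries and are not independent of each other.

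Ratios of factors within a library do not change when a library is scaled by a single factor, but they can change with centring within GC classes. *Gata2* and *Sox18* are in the highest GC class and *Tal1* and *Sox17* in the next, and ratios after such centring were not computed. In FPKM as deposited, 9 pairs within the 3 classes of factors were compared by exact permutation of the 3 E3KO and 6 control libraries. The log2 ratio of *Sox17* to *Sox18* was -5.56 ± 0.400 (SD, n = 6) in the controls and -4.62 ± 0.406 (SD, n = 3) in E3KO, a difference of 0.93 with no overlap (exact p = 0.0119, the smallest possible). *Sox7* to *Sox17* differed by -1.01 (exact p = 0.0119, no overlap), and *Sox7* to *Sox18* by -0.08 (exact p = 0.50). *Sox17* made up 1.13% to 2.39% of the summed SoxF FPKM among controls and 2.61%, 2.82% and 4.44% in E3KO.

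In the GATA2 class, *Gata2* was lower relative to *Tal1* by 0.51 on the log2 scale (exact p = 0.0119, no overlap), and *Tal1* was higher relative to *Lmo2* by 0.43 (exact p = 0.0119, no overlap). The log2 ratio of *Gata2* to *Lmo2* differed by -0.08 (exact p = 0.607), with overlapping libraries. Among the Krüppel-like factors the log2 ratio of *Klf2* to *Klf4* differed by -0.63 (exact p = 0.0238) with overlapping libraries, and the library labelled E3KO replicate 1 lay furthest from the controls. *Klf2* to *Klf6* differed by -0.53 (exact p = 0.179) and *Klf4* to *Klf6* by 0.10 (exact p = 0.702). Each pair without overlap holds *Sox17*, *Gata2* or *Lmo2*, which already lay apart singly in FPKM as deposited, so these ratios are not a separate result. The share of all gene pairs without overlap was not computed.

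**Figure D3:**
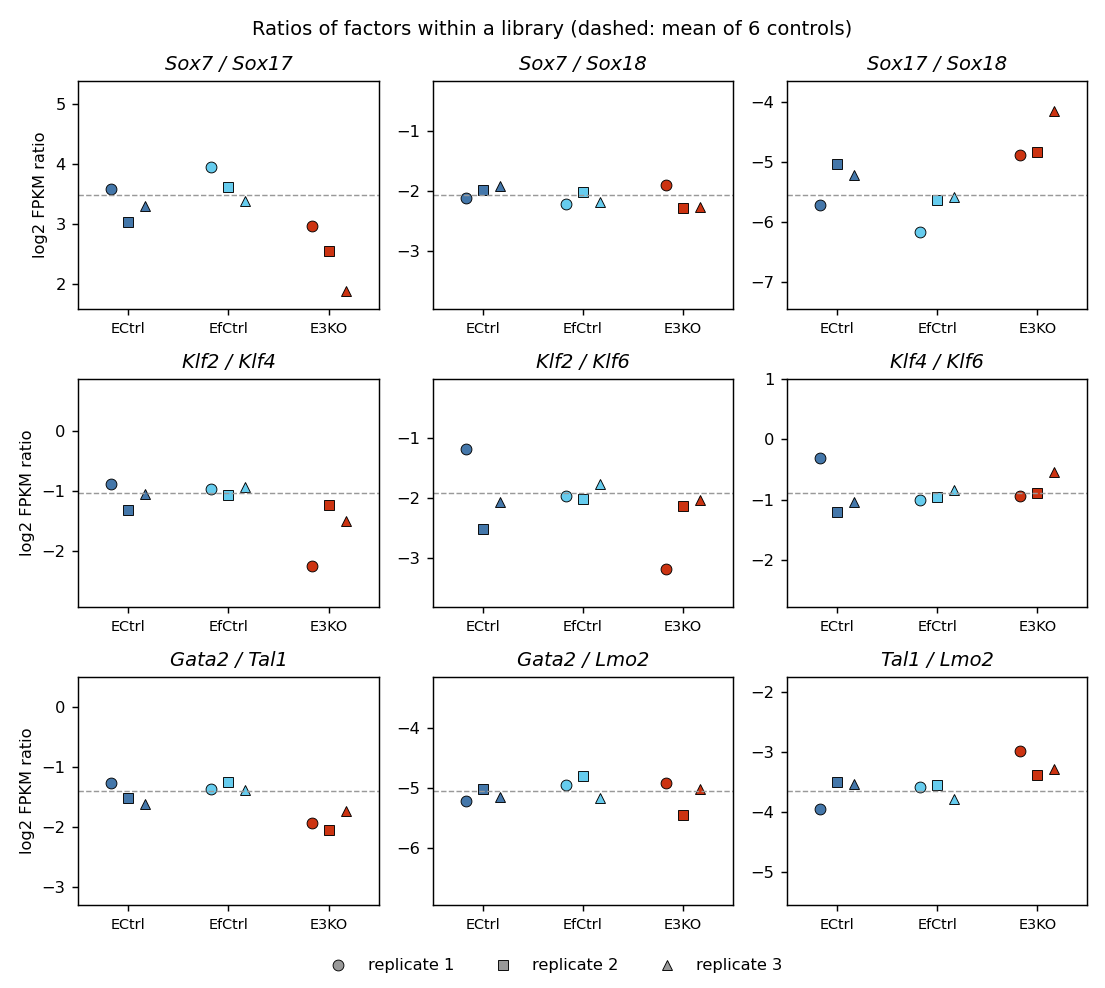
Log2 ratio of the FPKM of pairs of factors in each library, by group, with the mean of the 6 controls dashed and every panel spanning the same height. E3KO and controls do not overlap for *Sox7* to *Sox17*, *Sox17* to *Sox18*, *Gata2* to *Tal1* and *Tal1* to *Lmo2*. Each of these pairs holds *Sox17*, *Gata2* or *Lmo2*, which lay apart singly in FPKM as deposited.

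The 3 genes whose pattern over the 9 libraries was most like that of *Klf6*, by Pearson r on log2(FPKM + 1), were *Fgf12* (r = 0.989), *Lysmd2* (r = 0.985) and *Cttnbp2nl* (r = 0.981). They were searched among all genes tested, all 9 libraries share the difference between groups, and r is given as a description. *Lysmd2* was at 20.2 to 24.3 FPKM among controls and at 9.11, 12.4 and 11.7 FPKM in E3KO.

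The relatives of the members were read from lists written by family and pathway, against the mean of the controls and beside a median log2 difference of -0.083 over all genes. In this contrast 4.8% of all genes tested were called, 163 higher and 346 lower. Every call named from these lists was lost without E3KO replicate 3, at limma adjusted p from 0.0672 to 0.123, a fit that called 9 genes in all in place of 509. Of 14 other KLF genes, 8 were tested and 1 fell, with a list median of -0.42. It was *Klf11*, a zinc finger repressor, at 6.82 to 9.77 FPKM among controls and at 3.69, 4.61 and 3.77 FPKM in E3KO (log2 change -0.82, limma adjusted p = 0.0162), and the call was also lost without EfCtrl replicate 3 (0.0516). *Klf3*, the highest of the other KLF genes, was at 52.9 to 57.7 FPKM among controls and 54.6 to 59.9 in E3KO. Of 16 other SOX genes, 2 were tested and 0 called, and 8 were under 0.1 FPKM in every library; the highest, *Sox4*, differed by -0.29 (adjusted p = 0.407). Of 5 other GATA genes none reached the minimum of 2 FPKM, the highest being *Gata6* at 0.742 to 1.78 FPKM, and *Gata1*, the erythroid member, was listed at 0 in all 9 libraries.

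Genes of the machinery around the members gave no calls. Of 13 genes of the TAL1 and LMO2 complex and its relatives, 8 were tested and 0 called, with a median of -0.14. *Tcf4*, an E protein and the highest of them, differed by 0.06 (limma adjusted p = 0.772). Of 6 MEF2 genes and class IIa histone deacetylases, 5 were tested and 0 called (median -0.19), with *Mef2a* highest at 47.3 FPKM among controls and 59.7 in E3KO. All 4 genes of the MEK5-ERK5 branch were tested and 0 were called (median -0.11). *Map3k3*, the highest of these, differed by -0.44 (adjusted p = 0.152).

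Known targets of the members included calls in both directions. Of 9 genes that KLF2 or KLF4 are known to induce, 8 were tested, 2 rose and 1 fell, with a median of -0.0029. The prostaglandin transporter gene *Slco2a1* was at 0.338 to 1.33 FPKM among controls and at 4.89, 4.89 and 8.38 FPKM in E3KO (log2 change 1.88, adjusted p = 0.0110). *Slco2a1* reached the minimum of 2 FPKM only in E3KO, so it entered the test through the group where it is high. With no filter on low values its limma adjusted p was 0.0226. *Ass1*, which encodes an enzyme of arginine synthesis, was at 9.67 to 16.5 FPKM among controls and 26.4 to 32.0 in E3KO (1.21, adjusted p = 0.0128). *Gja4*, the gap junction gene connexin 37, was at 2.09 to 5.56 FPKM among controls and 1.05 to 1.13 in E3KO (-1.07, adjusted p = 0.0408). *Aqp1*, a water channel gene and the highest of this list, differed by 0.44 (adjusted p = 0.0655), and *Nos3*, encoding endothelial nitric oxide synthase, by 0.07 (adjusted p = 0.835). The calls of *Slco2a1* and *Ass1* held in 8 of the 9 fits without a single library and that of *Gja4* in 1 of 9, with limma adjusted p = 0.0775 without the library labelled E3KO replicate 1 and 0.0541 with the replicate block.

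Of 6 genes that KLF2 or KLF4 are known to repress, 5 were tested, 3 rose and 0 fell, with a median of 0.87. The adhesion molecule gene *Icam1* was at 5.02 to 10.4 FPKM among controls and at 28.1, 18.8 and 21.9 FPKM in E3KO (log2 change 1.37, limma adjusted p = 0.0140). The chemokine gene *Ccl2* was at 144 to 287 FPKM among controls and 482 to 537 in E3KO (1.27, adjusted p = 0.0231). *Edn1*, which encodes endothelin 1, was at 72.6 to 119 FPKM among controls and 141 to 186 in E3KO (0.87, adjusted p = 0.0351). *Angpt2*, the highest of the list, differed by -0.49 (adjusted p = 0.0724), and the adhesion molecule gene *Vcam1* by -0.13 (adjusted p = 0.810). The call of *Icam1* held in 8 of the 9 fits without a single library, that of *Ccl2* in 4 and that of *Edn1* in 1, and without the library labelled E3KO replicate 1 the adjusted p were 0.0319, 0.0543 and 0.0765. With the replicate block *Edn1* was not called (adjusted p = 0.0858).

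All 8 SoxF targets were tested, and 2 fell and 0 rose, with a median of -0.22. *Prox1*, the master factor of lymphatic endothelium, was at 117 to 158 FPKM among controls and at 58.1, 79.2 and 64.7 FPKM in E3KO (log2 change -0.99, limma adjusted p = 0.0131). It was the 1 SoxF target that was also called against each control alone (adjusted p = 0.0280 and 0.0399). *Cldn5*, a tight junction gene, was at 167 to 276 FPKM among controls and 97.5 to 129 in E3KO (-0.92, adjusted p = 0.0322). *Dll4*, an arterial Notch ligand gene, differed by -0.71 (adjusted p = 0.0783), and *Cdh5*, the highest target, by 0.05 (adjusted p = 0.836). The call of *Prox1* held in 8 of the 9 fits without a single library and that of *Cldn5* in 2, with adjusted p of 0.0285 and 0.0704 without the library labelled E3KO replicate 1, and that of *Cldn5* was also lost with the replicate block (0.0715).

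Of 11 targets of GATA2 and TAL1, 10 were tested, 2 rose and 0 fell, with a median of 0.07. They were *Edn1*, given above, and *Emcn*, an endothelial sialomucin gene at 822 to 1095 FPKM among controls and 1452 to 1557 in E3KO (log2 change 0.63, limma adjusted p = 0.0260). Of 17 immediate early genes, which are induced within minutes by many stimuli, 9 were tested, 1 rose and 1 fell, with a median of 0.22. *Zfp36*, an RNA decay factor gene, was at 1.54 to 2.44 FPKM among controls and 3.998 to 4.34 in E3KO (0.79, adjusted p = 0.0140). *Jun*, the AP-1 gene whose protein JNK phosphorylates, was at 11.3 to 14.7 FPKM among controls and 7.14 to 9.24 in E3KO (-0.60, adjusted p = 0.0329). *Btg2*, the highest of the list, differed by -0.23 (adjusted p = 0.176). Of the 9 fits without a single library, 8 called *Zfp36*, 4 *Emcn* and 2 *Jun*, and without the library labelled E3KO replicate 1 the adjusted p were 0.0313, 0.0540 and 0.0638. With the replicate block *Emcn* (0.0579) and *Jun* (0.0810) were not called.

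**Figure D4:**
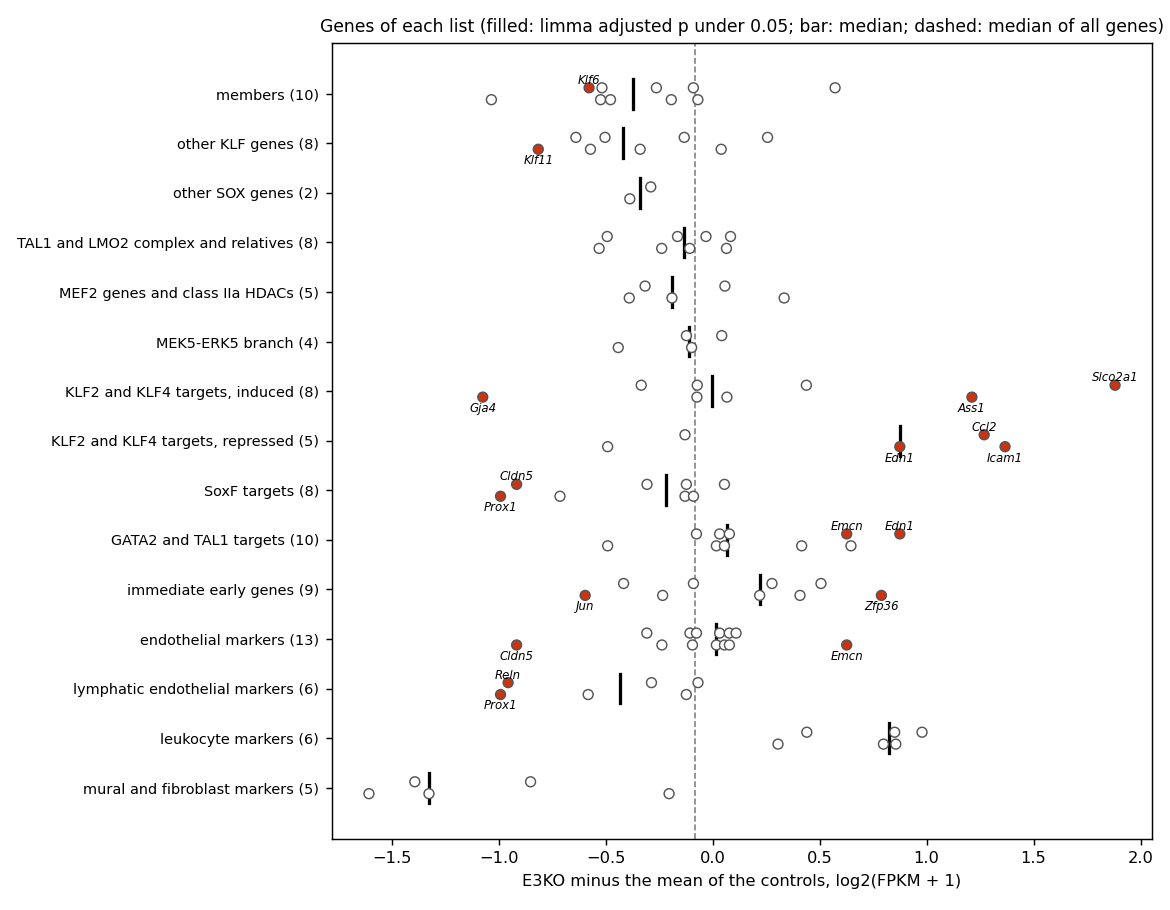
Difference of each tested gene between E3KO and the mean of the controls on the log2(FPKM + 1) scale, by list, with the number tested in parentheses; "members" are the 10 factors. Filled points passed a limma adjusted p of 0.05 and are named, the bar is the median of a list and the dashed line the median of all genes, -0.083. The genes that KLF2 and KLF4 are known to repress have 3 filled points above 0, while *Angpt2* and *Vcam1*, not filled, lie below 0.

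The members are not markers of endothelium alone, since *Gata2*, *Tal1* and *Lmo2* also act in blood and mast cells, and in bulk samples fewer cells of a type and less RNA per cell cannot be told apart. Most endothelial genes were high, with *Pecam1* at 643 to 798 FPKM over the 9 libraries, but *Vwf*, at 0.356 to 2.15 FPKM, was too low to be tested. Of 13 endothelial markers tested, *Emcn* rose and *Cldn5* fell, as given above (median 0.02). Lymphatic markers were also high, led by *Lyve1* at 1513 to 2050 FPKM. Against the mean of the controls, all 6 lymphatic markers had log2 differences below 0 (median -0.43), and 2 fell, *Prox1* and *Reln* (-0.96, limma adjusted p = 0.0167). Against EfCtrl alone 1 of the 6 was above 0 (median -0.41). The summed FPKM of the 6 was 2463 to 3331.5 in the controls and 2274 to 2566 in E3KO. Among erythroid, megakaryocyte and mast cell markers, *Gata1*, *Hba-a1* and *Gfi1b* were listed at 0 in every library, 2 of 8 were tested and 0 called, the highest was *Kit*, and the sums were 23.4 to 39.6 FPKM among controls and 27.6 to 29.7 in E3KO.

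Leukocyte markers summed to 83.9 to 178 FPKM in ECtrl, 179 to 294 in EfCtrl and 232 to 364 in E3KO. Against the mean of the controls, all 6 tested had differences above 0 (median 0.82) and 0 were called, the highest, *Lyz2*, with a limma adjusted p of 0.202. Against EfCtrl alone 5 of the 6 were above 0 (median 0.39). *Ptprc*, encoding the common leukocyte antigen CD45, was at 0.0919 to 1.59 FPKM over the 9 libraries. Mural and fibroblast markers summed to 11.9 to 45.0 FPKM in ECtrl, 25.7 to 76.8 in EfCtrl and 10.1 to 22.9 in E3KO. Against the mean of the controls, all 5 tested were below 0 (median -1.33) and 0 were called, the highest, *Acta2*, with a limma adjusted p of 0.129. Against ECtrl alone 1 of the 5 was above 0 (median -0.89). All 5 were higher in EfCtrl than in ECtrl (median 0.85). Epithelial markers summed to 2.55 to 6.05 FPKM in the controls, 2.81 and 4.27 in E3KO replicates 2 and 3, and 51.3 in the library labelled E3KO replicate 1, of which 46.2 FPKM was the club cell gene *Scgb1a1*. Of the 7, 2 were tested (median 0.69) and 0 called, and *Krt18* was highest in the controls. *Scgb1a1*, 1 of these 2, was at 0 to 1.87 FPKM among controls and at 46.2, 0 and 0.655 FPKM in E3KO. It reached the minimum of 2 FPKM only through the library labelled E3KO replicate 1, so the median rests in part on that library. The part of these other cell types in the levels of the members was not tested.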

How the data were processed

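MLEC RNA was sequenced as paired 40-base reads. The authors aligned them to mm10 with TopHat and Bowtie, and deposited FPKM per locus and library from Cufflinks (1.0.3 in the submitters' processing notes), group FPKM, and Cuffdiff columns of their own comparisons (log2 fold change, test statistic, p-value, q-value), which were not used. Fragment counts are unknown, so no counting interval is given.

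Symbols naming 1 locus (33353) were kept, 2 loci without values dropped, and 10605 genes with a group mean of at least 2 FPKM tested on log2(FPKM + 1) with limma 3.58.1 (R 4.3.3), Benjamini-Hochberg adjusted, at an adjusted p under 0.05. The fit was checked on simulated data with independent normal noise and no difference in quality between libraries. That check says nothing of how a library such as the one labelled E3KO replicate 1 affects the fit. Permutation tests were two-sided, on the size of the difference in mean log2 values (numpy 2.4.6, Python 3.11.15), with 84 splits of 3 against 6 and 20 of 3 against 3, where the smallest p is 0.1. GC content came from the longest GENCODE M21 transcript, for 88.8% of genes tested.

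The members and lists were chosen with earlier results of these data known. Named are the members, the JNK genes, up to 5 called genes per list and its highest gene, and the 3 genes most like the member with the largest moderated t. Outside this rule are *Nos3*, *Vcam1*, *Dll4*, *Gata1*, *Hba-a1*, *Gfi1b*, *Pecam1*, *Vwf*, *Ptprc* and *Scgb1a1*, chosen after their values were seen. Settings were varied as listed at the end, 4 of them (2 libraries left out, scaling to the authors' group values, fewer symbols, GC content) and the count of overlaps by scaling chosen after seeing the data.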

Additional observations from a re-analysis of the deposited data

How the results depend on the processing

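*Klf6* kept its direction under all 21 alternatives in every contrast with E3KO, and so did *Klf2*, *Klf4*, *Gata2*, *Lmo2*, *Sox7*, *Sox18* and *Sox17*. *Klf6* was called against the mean of the controls under 17 of 21, against ECtrl under 9 and against EfCtrl under 2. The number of members called against ECtrl, 1, was 0 with median centring and with the authors' scaling. It was 0 with both the library labelled E3KO replicate 1 and ECtrl replicate 1 left out. Of 9 fits without a single library, 8 gave 0 and that without E3KO replicate 1 gave 1. Against EfCtrl, 0 members became 1 with limma's trend (*Klf6*) and with both libraries left out (*Gata2*), and 5 with limma's array weights (*Sox7*, *Sox17*, *Klf6*, *Gata2* and *Lmo2*). Against the mean of the controls, 1 became 5 with array weights (the same genes) and 2 with the authors' scaling (*Sox17* and *Klf6*), with 0 to 2 when single libraries were left out, 0 without any 1 EfCtrl library or without E3KO replicate 3. In these 2 contrasts array weights raised gene calls from 101 and 509 to 1238 and 1333, and the authors' scaling gave 65 and 505. Array weights gave the library labelled E3KO replicate 1 a weight of 0.133 and the others 0.576 to 2.30. The cause of these changes was not tested.

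Directions reversed for *Mef2c* and *Tal1* between E3KO and the controls and for 6 members between the controls, and none of these differences was called. *Mef2c* turned to 0.0372 against EfCtrl and 0.0017 against the mean of the controls with median centring, and its range against EfCtrl without single libraries was -0.0803 to 0.00599. With the authors' scaling it turned to 0.00998, 0.0950 and 0.0525 against ECtrl, EfCtrl and their mean, and *Tal1* to 0.0150, 0.0485 and 0.0317. Between the controls, *Tal1* turned to 0.00683 with 75th percentile scaling and *Klf2* to 0.0151 with array weights. EfCtrl minus ECtrl without single libraries was -0.0949 to 0.0040 for *Sox7*, -0.314 to 0.258 for *Klf2*, -0.322 to 0.0801 for *Klf4*, -0.0365 to 0.246 for *Gata2*, -0.0917 to 0.0466 for *Tal1* and -0.184 to 0.1703 for *Lmo2*, the lowest without ECtrl replicate 3 for *Gata2*. The positive values of *Sox7*, *Klf2*, *Klf4*, *Tal1* and *Lmo2* came without ECtrl replicate 1 and were the same with E3KO replicate 1 also left out.

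With the replicate block, 0 members were called against ECtrl (*Klf6*, adjusted p = 0.0752), and the counts in the other contrasts did not change. Deviations of libraries with the same number correlated between -0.04 and 0.12, not above 0.1 in every pair. Their cells came from different mice, and the fit without the block treated the libraries as unpaired. Whether equal numbers shared a batch of isolation or sequencing was not tested.

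Over all genes, the calls against ECtrl, EfCtrl and the mean of the controls were 239, 101 and 509, and 460, 1238 and 1333 with array weights, 95, 17 and 351 without the filter, 1, 1 and 202 with the replicate block, and 4, 327 and 456 with both libraries left out. Against EfCtrl there were 199 without predicted genes, clones and small RNAs, which gave 362 against ECtrl. Leaving out single libraries gave 0 to 215, 1 to 218 and 9 to 408, the lowest without E3KO replicate 3, and between the controls 0 to 4 in place of 0. The median log2 difference of all genes from the mean of the controls was -0.083, with 163 genes higher and 346 lower. It was -0.01 with median centring (209 and 268), -0.01 within 5 classes of GC content (238 and 301) and 0.03 with the authors' scaling (310 and 195). With no fragment counts, the depth behind the low levels of *Sox17* and *Gata2* is unknown.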
